A study of Homo sapiens with 9 samples.

Results

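The genes of the TGF-beta, activin and BMP pathway, 45 of the 28216 genes in the count table, were followed in prostate cancer cell lines. The 45 members were chosen by name, from knowledge of the pathway, as its ligands, latent binding proteins, receptors, antagonists, SMAD proteins, inhibitors inside the cell and common target genes, with earlier results of these data known. RNA was sequenced in 9 libraries that form 3 groups of 3. PC3 and LNCaP are established lines grown from metastases of prostate cancer, and the labels give the genotype of both as WT and the LNCaP cells as clone FCG. PC3 cells were grown in F12K medium with 10% FBS and had no treatment. LNCaP cells, grown in RPMI, spent 24 h in phenol red-free RPMI with 10% charcoal-stripped FBS, and then 48 h with 10 nM DHT (androgen-treated LNCaP) or with 0.01% ethanol (vehicle-treated LNCaP). The labels name the agent as DHT, while the main text of the study names R1881, another androgen. Each line is 1 cell line in its own medium and serum, so that line, medium and serum cannot be told apart in any comparison of PC3 with LNCaP cells. Nothing in the labels ties the replicates to separate cultures, and p-values therefore measure the spread between these libraries, which may be technical.

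TGF-beta, activin and BMP ligands are secreted dimers that bring together type I and type II serine/threonine kinase receptors at the cell surface. The active type I receptor phosphorylates receptor-regulated SMAD proteins (SMAD2 and SMAD3 after TGF-beta and activin, SMAD1, SMAD5 and SMAD9 after BMP), which join SMAD4 and enter the nucleus. TGF-beta slows the growth of normal prostate epithelium and promotes mesenchymal features in many carcinomas, and BMPs are known in prostate cancer for their part in bone metastases. Antagonists such as follistatin and noggin hold ligands outside the cell, while inhibitory SMADs, SKI proteins, PMEPA1 and BAMBI act at the membrane or inside it.

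The counts on genes summed to 17397706 in the shallowest library and 25640325 in the deepest, and a count of 0 allowed a level of up to 0.118 to 0.16 CPM (read counts relative to the TMM-scaled size of the library) as far as counting error goes. The LNCaP markers KLK3, KLK2 and FOLH1 reached at most 20 counts in any PC3 library and at least 621 in every LNCaP library. HOXB13, listed with them, counted 11622 to 20449 in PC3 cells and 8355 to 10560 in LNCaP cells, and TMPRSS2 counted 544 to 974 in PC3 cells. The summed level of the PC3 markers (VIM, CD44, CAV1, EPHA2 and AXL) in LNCaP libraries was 0.378% to 0.952% of the PC3 mean with androgen and 0.256% to 0.471% with vehicle, and replicate 1 had the highest share in both groups. The markers differed within this sum. EPHA2 counted 193, 113 and 107 with androgen and 150, 120 and 136 with vehicle, where it was the highest of them in every library. AXL counted 50, 10 and 4 with androgen and 10, 1 and 2 with vehicle. PTPRC, CD3E and CD14 stayed at 7 counts or fewer in each library, DCN at 2 or fewer, and CDH5 at 0. Of the other fibroblast and endothelial markers, COL1A1 counted 842 to 1013 in PC3 cells and at most 469 in LNCaP cells, PECAM1 47 to 85 in PC3 cells and VWF 148 to 335 in LNCaP cells. Since the libraries are bulk RNA, fewer cells that express a gene and less RNA per cell cannot be told apart.

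A member was tested in a comparison where it exceeded 3 CPM in at least 3 of the 6 libraries, and was called higher or lower at an edgeR adjusted p-value under 0.05 with a fold change of at least 2. Log2 fold changes are given with their standard error (SE). Of the 45 members, 28 were called in at least 1 of the 3 comparisons and 3 (GDF15, SMAD9 and ID2) in all. The 45 include members not tested in some or all comparisons. Of all tested genes, 14.0% were called with androgen, and 46.0% and 43.2% in PC3 cells against androgen-treated and vehicle-treated LNCaP cells. The share of all genes called in at least 1 comparison was not computed, so the 28 and the 3 only describe the members.

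**Figure D1:**
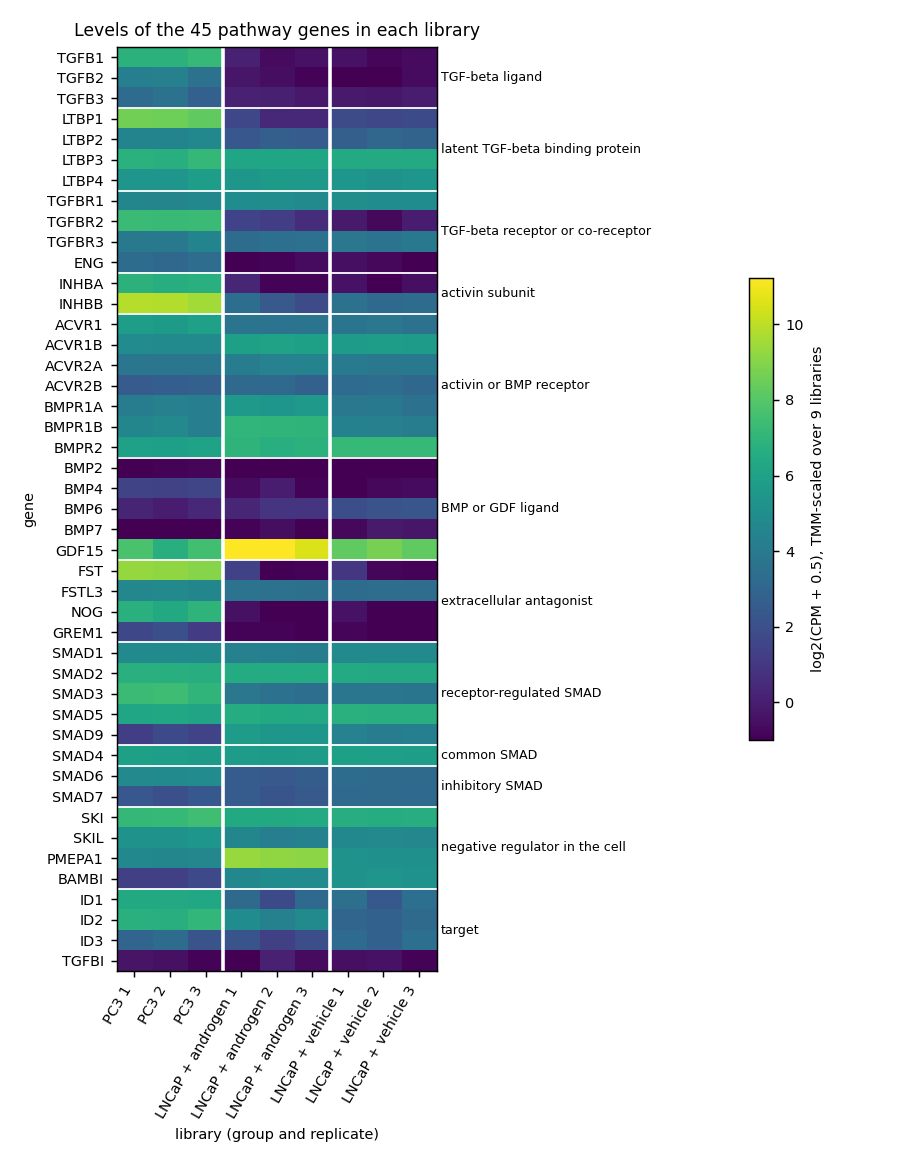
Level of each of the 45 pathway genes (rows, ordered by role) in each of the 9 libraries (columns), coloured by log2 of CPM plus 0.5. TGFB1, TGFBR2, INHBA, FST and NOG are bright in the 3 PC3 libraries and dark in all 6 LNCaP libraries, while GDF15 and PMEPA1 are brightest in the 3 androgen-treated LNCaP libraries.

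PC3 cells held far more RNA for many genes of the TGF-beta and activin branches than LNCaP cells of either treatment. The TGF-beta ligands, the type II receptor TGFBR2, both activin subunits, the antagonists FST and NOG, and SMAD3 were higher in PC3 cells, by more than 10-fold for each of these genes. SMAD9, BAMBI and GDF15 were lower in PC3 cells than in both LNCaP groups, and BMPR1A, BMPR1B and PMEPA1 were lower than in androgen-treated LNCaP cells. The GDF15 call against vehicle-treated cells was lost without PC3 replicate 2 or without vehicle-treated replicate 2. Against androgen-treated LNCaP cells 39 members were tested and 25 were called (64.1%), beside 46.0% of the 12541 genes tested. Of these, 18 (46.2%) were higher in PC3 cells, beside 24.0% of all genes, and 7 (17.9%) were lower, beside 22.1%. Against vehicle-treated LNCaP cells 40 members were tested and 23 were called (57.5%), beside 43.2% of 12686 genes. There, 17 (42.5%) were higher, beside 22.2%, and 6 (15%) were lower, beside 21.0%. Both comparisons share the PC3 libraries, so their counts are not separate evidence.

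The median log2 fold change over the tested members was 0.81 against androgen-treated and 0.42 against vehicle-treated LNCaP cells, while the medians over all tested genes were 0.04 and 0.03. These counts and medians describe the members and do not support a shift of the list, because some members passed the filter only through the group in which they were high. Against androgen-treated LNCaP cells 9 members were at or under 3 CPM in every LNCaP library, and 2 in every PC3 library. The 9 were TGFB1, TGFB2, TGFB3, LTBP1, TGFBR2, ENG, INHBA, FST and NOG, and the 2 were SMAD9 and BAMBI. Against vehicle-treated cells the numbers were 8 and 3, without LTBP1 and with BMP6 in addition. For each of these members the filter fixed in advance that the groups lay apart, and in which direction. Their p-values therefore add no support to the counts. By adjusted p-value alone 35 and 33 members differed, with 84.0% and 83.4% of all genes.

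**Figure D2:**
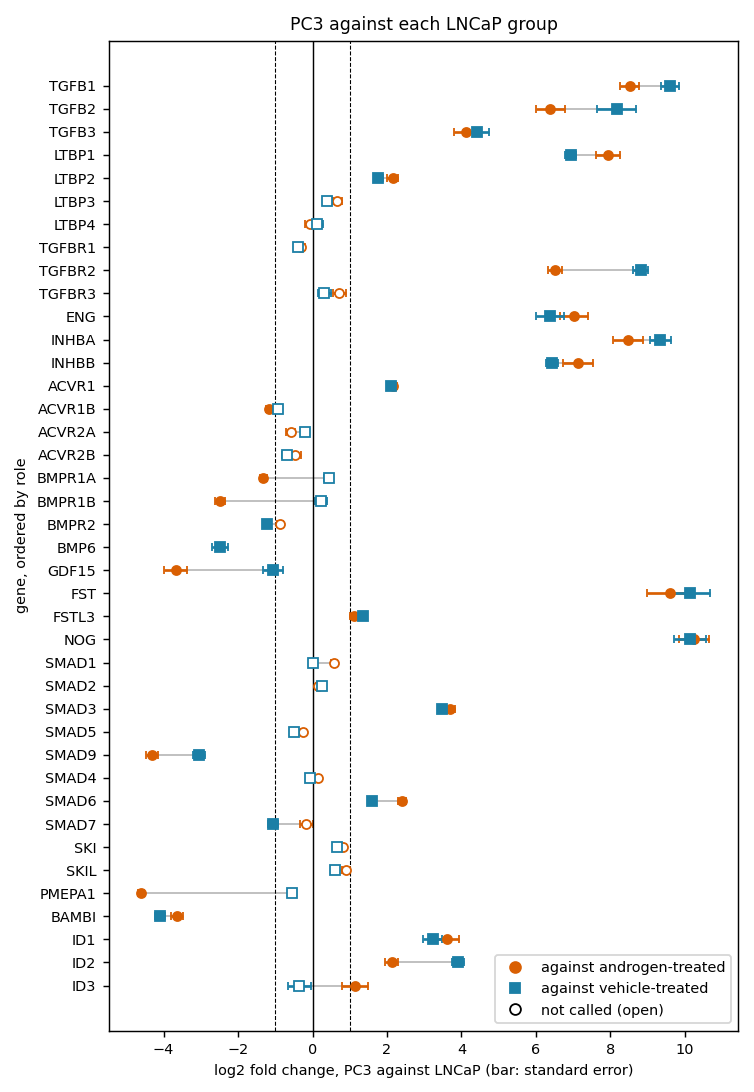
Log2 fold change of each tested member in PC3 cells against androgen-treated and against vehicle-treated LNCaP cells (horizontal axis, bars are standard errors), by gene in order of role. Values above 0 are higher in PC3 cells, and TGFB1, INHBA, FST and NOG lie above 8 in both comparisons while SMAD9 and BAMBI lie below -3 in both.

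The 3 TGF-beta ligands were each higher in PC3 cells. TGFB1, the most widely expressed of them, counted 2945, 2581 and 3710 reads in PC3 replicates 1 to 3, 13, 3 and 5 in the androgen-treated and 5, 1 and 3 in the vehicle-treated LNCaP libraries. Its log2 fold changes were 8.52 (SE 0.26, edgeR adjusted p = 5.95e-08) against androgen-treated and 9.60 (SE 0.24, edgeR adjusted p = 2.81e-08) against vehicle-treated LNCaP cells. All 3 ligands were at or under 3 CPM in every LNCaP library, so the filter had fixed that the groups lay apart and in which direction. TGFB2 counted 475, 436 and 302 in PC3 cells, 7, 4 and 1 with androgen and 0, 0 and 3 with vehicle. Its log2 fold change was 6.39 (SE 0.39, edgeR adjusted p = 1.73e-06) against androgen-treated cells, and the summed counts in PC3 cells were 323 times those of vehicle-treated cells after scaling (95% counting interval 110 to 1570). Of the 74-nt stretches in TGFB2 transcripts, 31.5% were also found at another place of the genome or the transcriptome, so its level is less certain than that of TGFB1. TGFB3 counted 232, 265 and 158 in PC3 cells, 13, 11 and 8 with androgen and 8, 7 and 9 with vehicle, and its log2 fold changes were 4.12 (SE 0.32, edgeR adjusted p = 6.96e-06) and 4.42 (SE 0.33, edgeR adjusted p = 6.15e-06). TGFB3 was the lowest of the ligands in PC3 cells per length, at 1.75 CPM per kb of exons against 38.8 for TGFB1.

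Latent TGF-beta binding proteins tether the inactive ligand to the matrix. LTBP1 counted 9826, 8356 and 7603 in the PC3 libraries, 55, 17 and 17 with androgen and 60, 48 and 58 with vehicle. PC3 libraries were all above LNCaP libraries, by log2 fold changes of 7.94 (SE 0.32, edgeR adjusted p = 2.09e-07) and 6.93 (SE 0.15, edgeR adjusted p = 1.6e-08). LTBP1 was at or under 3 CPM in every androgen-treated library, so the filter had fixed this order against androgen-treated cells. LTBP2 counted 557, 503 and 661 in PC3 cells, 99, 124 and 105 with androgen and 114, 143 and 139 with vehicle, with differences of 2.15 (SE 0.14, edgeR adjusted p = 2.27e-06) and 1.77 (SE 0.13, edgeR adjusted p = 4.61e-06) on the log2 scale. LTBP3 and LTBP4 were not called in any comparison. LTBP3 was at 111, 104 and 142 CPM in PC3 cells, 76.2, 73.9 and 71.9 with androgen and 89.7, 88.5 and 88.2 with vehicle, and LTBP4 groups overlapped in both PC3 comparisons.

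Among the TGF-beta receptors the difference lay in the type II receptor and in a co-receptor. TGFBR2, the kinase that binds TGF-beta and activates the type I receptor, counted 4039, 3442 and 4124 in PC3 cells, 49, 38 and 20 with androgen and 8, 2 and 10 with vehicle. It was higher in PC3 cells by 6.52 (SE 0.19, edgeR adjusted p = 5.07e-08) and 8.81 (SE 0.20, edgeR adjusted p = 2.18e-08) on the log2 scale. Its partner TGFBR1 showed no such gap, with 24.3 ± 0.974 CPM in PC3 cells (SD, n = 3), 29.8 ± 2.27 with androgen and 31.4 ± 1.41 with vehicle. ENG, the co-receptor endoglin, counted 240, 180 and 249 in PC3 cells but 0, 1 and 3 with androgen and 4, 2 and 0 with vehicle, giving log2 fold changes of 7.02 (SE 0.38, edgeR adjusted p = 8.92e-07) and 6.37 (SE 0.38, edgeR adjusted p = 1.61e-06). With STAR's unstranded counts in place of the deposited ones these values were 3.81 and 3.97, still called. On ENG, 16.7% of all counts lay on the opposite strand. By the deposited counts, TGFBR2 and ENG were at or under 3 CPM in every LNCaP library, so the filter had fixed the direction of their differences. TGFBR3, the co-receptor betaglycan, was not called (0.72 and 0.32).

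INHBA and INHBB encode the beta subunits that pair to form activins. INHBB was the member with the highest level per length in PC3 cells (269.7 CPM per kb), at 939.5, 918 and 736 CPM in the PC3 libraries, 10.4, 4.90 and 3.03 with androgen and 11.8, 8.43 and 9.43 with vehicle. The difference was 7.13 (SE 0.40, edgeR adjusted p = 1.05e-06) against androgen-treated and 6.43 (SE 0.17, edgeR adjusted p = 3.15e-08) against vehicle-treated cells on the log2 scale. INHBA counted 2859, 2149 and 2733 in PC3 cells, 16, 1 and 1 with androgen and 5, 0 and 4 with vehicle, with log2 fold changes of 8.48 (SE 0.40, edgeR adjusted p = 4.17e-07) and 9.34 (SE 0.28, edgeR adjusted p = 5.41e-08). Every PC3 library stood above every LNCaP library for both subunits. For INHBA, at or under 3 CPM in every LNCaP library, the filter had fixed this.

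The secreted antagonists were higher in PC3 cells as well. FST, follistatin, which binds activins with high affinity, was next to INHBB in level per length in PC3 cells (212 CPM per kb) and counted 15907, 13286 and 13240 there, 45, 0 and 1 with androgen and 27, 1 and 1 with vehicle. Its log2 fold changes were 9.61 (SE 0.63, edgeR adjusted p = 2.47e-06) and 10.15 (SE 0.52, edgeR adjusted p = 7.19e-07). NOG, noggin, a BMP antagonist, counted 2684, 1885 and 3143 in PC3 cells, and 5, 0 and 0 in each LNCaP group, with log2 fold changes of 10.25 (SE 0.41, edgeR adjusted p = 2.04e-07) and 10.14 (SE 0.42, edgeR adjusted p = 2.42e-07). Both genes were detected in the LNCaP libraries almost only in replicate 1 of each group. For FST and NOG, at or under 3 CPM in every LNCaP library, the filter had fixed the direction of the differences. FSTL3, a follistatin relative, differed less, with 627, 584 and 604 counts in PC3 cells, 259, 232 and 222 with androgen and 180, 183 and 199 with vehicle and log2 fold changes of 1.11 (SE 0.09, edgeR adjusted p = 7.96e-06) and 1.35 (SE 0.09, edgeR adjusted p = 2.31e-06). Without androgen-treated replicate 3 the FSTL3 value was 1.00, just under the threshold. GREM1, gremlin, was under the filter in each comparison and counted 67, 78 and 45 in PC3 cells, 1, 1 and 0 with androgen and 1, 0 and 0 with vehicle. The scaled ratio of its summed counts was 81.2 (95% counting interval 22.2 to 675) against androgen-treated and 152 (26.9 to 6020) against vehicle-treated cells.

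The sizes of several of these differences rest on a few counts in LNCaP cells. Leaving out androgen-treated replicate 1, in which the PC3 markers were highest, moved the log2 fold change against androgen-treated cells to 9.18 for TGFB1, 8.61 for LTBP1, 10.82 for INHBA, 14.14 for FST and 14.18 for NOG. Leaving out vehicle-treated replicate 1 moved the values against vehicle-treated cells to 13.20 for FST, 14.15 for NOG and 7.21 for ENG. The value for ENG was 8.20 without androgen-treated replicate 3, that for TGFB2 was 11.50 without vehicle-treated replicate 3, and that for INHBA was 8.70 without vehicle-treated replicate 2. With so few counts in the remaining LNCaP libraries, these fitted sizes depend on the prior count of the fit. The direction and the call held in each of these fits. All 3 PC3 libraries stayed in them, and these genes passed the filter through those libraries, so the fits were no check of direction or call. Without a PC3 library the members at or under 3 CPM in LNCaP cells were not tested, because the filter needs 3 libraries. In LNCaP libraries FST reached at most 0.356% of the PC3 mean, NOG 0.249%, TGFB1 0.475% and INHBA 0.697%, beside 0.256% to 0.952% for the summed PC3 markers. That sum includes EPHA2, which had at least 107 counts in every LNCaP library. The part of the PC3-marker signal in these low counts was not tested.

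Receptors for activins and BMPs were mixed. ACVR1, a type I receptor for BMPs and activins, was at 55.3, 49.8 and 62.7 CPM in PC3 cells, 12.7, 12.3 and 12.7 with androgen and 12.6, 13.7 and 11.8 with vehicle. It was higher in PC3 cells by 2.15 (SE 0.11, edgeR adjusted p = 5.09e-07) and 2.12 (SE 0.11, edgeR adjusted p = 9.18e-07) on the log2 scale. ACVR1B, the main activin type I receptor, was at 29.2, 27.2 and 27.9 CPM in PC3 cells and was lower than with androgen (62.4, 64.8 and 60.5 CPM). That difference was -1.17 (SE 0.07, edgeR adjusted p = 1.4e-06) on the log2 scale. Against vehicle (51.1, 54.9 and 52.6 CPM) the log2 fold change was -0.93 (edgeR adjusted p = 5.35e-06), under a fold of 2, and leaving out any 1 vehicle-treated library took it to the threshold or past it, to -1.06 at most. ACVR2A and ACVR2B, activin type II receptors, were not called in any comparison, and their group means ran from 5.71 to 20.1 CPM.

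BMPR2, the BMP type II receptor, was at 64.3, 59.9 and 65.7 CPM in PC3 cells, 123, 104 and 117 with androgen and 144, 144 and 145 with vehicle. PC3 libraries were below all LNCaP libraries, and the gene was called lower against vehicle (-1.21, SE 0.06, edgeR adjusted p = 5.99e-07), but not against androgen (-0.87, edgeR adjusted p = 1.74e-05, or -1.02 without androgen-treated replicate 2). The type I receptors BMPR1A and BMPR1B were lower in PC3 cells than in androgen-treated cells, with log2 fold changes of -1.32 (SE 0.09, edgeR adjusted p = 2.32e-06) and -2.49 (SE 0.13, edgeR adjusted p = 8.16e-07). Against vehicle-treated cells the values were 0.43 (edgeR adjusted p = 0.00745) and 0.23 (edgeR adjusted p = 0.178), and neither was called. Their values in each library are given with the androgen comparison.

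The 4 BMP ligands on the list had low counts in both lines. BMP2 had at most 2 counts in any library, and no fold is given. BMP4 counted 58, 47 and 62 in PC3 cells, 3, 9 and 1 with androgen and 0, 2 and 3 with vehicle, and was under the filter in every comparison. Without a filter BMP4 was higher in PC3 cells by 3.42 against androgen-treated cells (edgeR adjusted p = 3.16e-05) and 4.63 against vehicle-treated cells (edgeR adjusted p = 7.5e-06) on the log2 scale. For BMP4, 13.7% of the 74-nt stretches also occur elsewhere. BMP7 was at 0 in all PC3 libraries and counted 2, 8 and 7 with vehicle, a mean level at least 2.37-fold higher than in PC3 cells when these are set at 3 counts in each library. With androgen BMP7 counted 1, 4 and 0, and no fold is given.

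BMP6 was lower in PC3 cells (18, 11 and 21 counts) than with vehicle (64, 72 and 86 counts), with a log2 fold change of -2.49 (SE 0.21, edgeR adjusted p = 1.27e-05), and was not tested against androgen-treated cells (16, 27 and 26 counts). The gene passed the filter through the vehicle-treated libraries alone, so a tested BMP6 had to be lower in PC3 cells. GDF15, a distant member of the family that is secreted under stress, was lower in PC3 cells at 208, 102 and 187 CPM. Its log2 fold change was -3.67 (SE 0.31, edgeR adjusted p = 1.06e-05) against androgen-treated and -1.07 (SE 0.27, edgeR adjusted p = 0.00597) against vehicle-treated cells. The latter call was lost without PC3 replicate 2 (-0.72) and without vehicle-treated replicate 2 (-0.99).

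SMAD proteins carry the signal to the nucleus. SMAD3 was at 159, 171 and 129.8 CPM in PC3 cells, 14.1, 11.2 and 10.1 with androgen and 13.6, 13.5 and 13.1 with vehicle, and was higher in PC3 cells by 3.68 (SE 0.15, edgeR adjusted p = 2.09e-07) and 3.49 (SE 0.11, edgeR adjusted p = 7.41e-08) on the log2 scale. SMAD9, of the BMP branch, went the other way at 1.91, 2.83 and 2.28 CPM in PC3 cells, -4.32 (SE 0.16, edgeR adjusted p = 1.55e-07) and -3.06 (SE 0.16, edgeR adjusted p = 8.43e-07) on the log2 scale. No library of one line overlapped the other line for either gene. For SMAD9, at or under 3 CPM in every PC3 library, the filter had fixed this. SMAD2, SMAD1, SMAD5 and SMAD4 were not called in any comparison, and their log2 fold changes in PC3 cells ran from -0.50 to 0.57. SMAD1 in PC3 cells was at 28.2 ± 0.0450 CPM (SD, n = 3), against 27.8 ± 0.789 with vehicle and 18.8 ± 0.935 with androgen.

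The inhibitory SMADs differed from each other. SMAD6, which acts mainly on BMP signals, counted 676, 603 and 754 in PC3 cells, 118, 97 and 112 with androgen and 182, 169 and 180 with vehicle, so that PC3 libraries were the highest. The differences were 2.40 (SE 0.11, edgeR adjusted p = 3.33e-07) and 1.59 (SE 0.09, edgeR adjusted p = 1.12e-06) on the log2 scale. SMAD7, which acts on TGF-beta and BMP signals, was at 4.43, 3.51 and 4.72 CPM in PC3 cells, 5.32, 3.97 and 4.87 with androgen and 8.53, 9.01 and 8.53 with vehicle. It was lower in PC3 cells than with vehicle (-1.06, SE 0.14, edgeR adjusted p = 0.00018), a call lost without PC3 replicate 2 (-0.84), and overlapped the androgen-treated libraries (-0.17, edgeR adjusted p = 0.379).

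BAMBI, a pseudoreceptor that lacks a kinase, was at 2.03, 2.02 and 2.76 CPM in PC3 cells, 25.9, 29.9 and 28.9 with androgen and 36.6, 40.6 and 37.7 with vehicle. It was lower in PC3 cells, at -3.64 (SE 0.15, edgeR adjusted p = 2.39e-07) and -4.09 (SE 0.14, edgeR adjusted p = 9.37e-08) on the log2 scale. For BAMBI, at or under 3 CPM in every PC3 library, the filter had fixed this direction. PMEPA1, which binds receptor-regulated SMADs, was lower in PC3 cells than with androgen (-4.61, SE 0.09, edgeR adjusted p = 1.24e-08) and was not called against vehicle (-0.56, edgeR adjusted p = 0.000143). The nuclear repressors SKI and SKIL were not called in either comparison, with log2 fold changes of 0.81 and 0.65 for SKI and 0.89 and 0.61 for SKIL. The former SKIL value was past the threshold without PC3 replicate 1 (1.04) or PC3 replicate 2 (1.06).

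ID1, ID2 and ID3 are common BMP targets that hold back basic helix-loop-helix factors. ID1 was at 86.7, 83.7 and 78.5 CPM in PC3 cells, 8.87, 2.84 and 8.59 with androgen and 10.9, 4.64 and 10.5 with vehicle, and was higher in PC3 cells by 3.60 (SE 0.34, edgeR adjusted p = 1.96e-05) and 3.23 (SE 0.26, edgeR adjusted p = 9.98e-06) on the log2 scale. ID2 was at 109, 100.3 and 138 CPM in PC3 cells and higher there by 2.13 (SE 0.17, edgeR adjusted p = 9.03e-06) and 3.91 (SE 0.17, edgeR adjusted p = 2.93e-07). ID3, at 7.42, 9.44 and 4.05 CPM in PC3 cells, was higher than with androgen (1.15, SE 0.35, edgeR adjusted p = 0.0166), and not called against vehicle (-0.36, edgeR adjusted p = 0.307). The ID3 call was lost without androgen-treated replicate 2 (0.81, edgeR adjusted p = 0.0828) or replicate 3 (1.11, edgeR adjusted p = 0.0567). TGFBI, named for its induction by TGF-beta, had 0 to 12 counts in each library and was not tested.

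Androgen raised a small set of pathway genes in LNCaP cells, led by PMEPA1, BMPR1B and GDF15. The other genes called higher were ID2, BMPR1A and SMAD9, and those called lower were BMP6 and ID3. Of the 31 members tested, 8 were called (25.8%), beside 14.0% of the 11697 genes tested. The 6 higher members are 19.4% of those tested, beside 6.54% of all genes, and the 2 lower members 6.45%, beside 7.49%. The median log2 fold change was -0.24 over the tested members and -0.01 over all genes. By adjusted p-value alone 25 members differed (80.6%), beside 74.9% of all genes, so most differences that passed the p-value threshold were smaller than 2-fold. In addition to the 31, 14 members were under the filter.

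**Figure D3:**
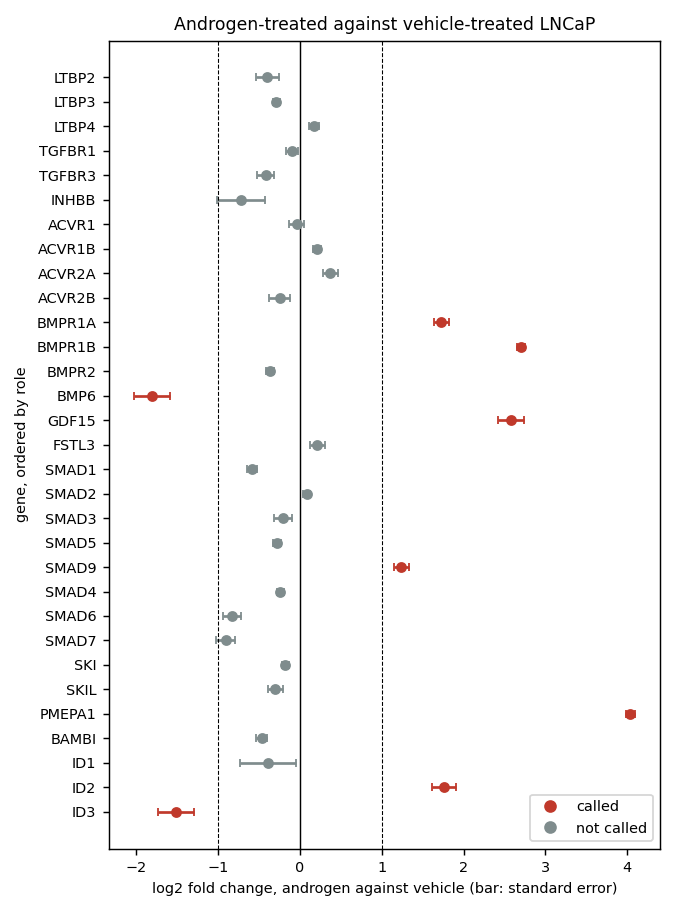
Log2 fold change of the 31 tested members in androgen-treated against vehicle-treated LNCaP cells (horizontal axis, bars are standard errors), by gene in order of role, with dashed lines at a fold of 2. PMEPA1 is the farthest to the right at 4.04 and BMP6 the farthest to the left at -1.81, and most uncalled members lie between the lines and below 0.

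PMEPA1, which ends TGF-beta signals by binding SMAD proteins and is known to respond to androgen in prostate cells, rose the most. It went from 37.0, 35.0 and 34.9 CPM with vehicle to 651, 584 and 555 with androgen, beside 25.2, 23.7 and 24.8 in PC3 cells. No androgen-treated library came near a vehicle-treated one, and the log2 fold change was 4.04 (SE 0.06, edgeR adjusted p = 1.65e-14). BMPR1B, a BMP type I receptor, went from 20.2, 19.6 and 17.7 CPM to 130.1, 129 and 122, beside 23.7, 26.8 and 18.0 in PC3 cells, a log2 fold change of 2.70 (SE 0.05, edgeR adjusted p = 2.02e-13). GDF15 went from 298, 422 and 307 CPM to 2351, 2405 and 1531, a log2 fold change of 2.58 (SE 0.16, edgeR adjusted p = 9.68e-09), with androgen-treated replicate 3 the lowest of its group and still above each vehicle library. Per length, GDF15 was the highest member in both LNCaP groups, at 1004 CPM per kb with androgen and 164 with vehicle.

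The promoters of these 3 genes are shown because they had the largest rises with androgen. Each line is the 250 bases before an annotated start in RefSeq on GRCh38.p14, on the strand of the gene, and for genes with several starts the window with the most motif matches was taken. Capitals mark TGTTCT or its complement AGAACA, the half-site of the androgen response element, and CAGAC or GTCTG, the SMAD box. The PMEPA1 window is chr20:57710578-57710827 on the minus strand, the BMPR1B window chr4:94995590-94995839 on the plus strand and the GDF15 window chr19:18385908-18386157 on the plus strand.
PMEPA1: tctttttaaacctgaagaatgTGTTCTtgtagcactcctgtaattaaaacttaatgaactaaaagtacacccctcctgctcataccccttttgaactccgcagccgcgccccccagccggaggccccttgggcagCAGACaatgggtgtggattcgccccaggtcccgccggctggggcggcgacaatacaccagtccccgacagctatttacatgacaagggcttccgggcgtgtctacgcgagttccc
BMPR1B: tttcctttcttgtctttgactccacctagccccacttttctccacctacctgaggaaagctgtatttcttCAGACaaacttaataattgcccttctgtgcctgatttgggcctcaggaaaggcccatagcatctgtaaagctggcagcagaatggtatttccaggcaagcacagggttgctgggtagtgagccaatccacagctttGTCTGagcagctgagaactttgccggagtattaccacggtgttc
GDF15: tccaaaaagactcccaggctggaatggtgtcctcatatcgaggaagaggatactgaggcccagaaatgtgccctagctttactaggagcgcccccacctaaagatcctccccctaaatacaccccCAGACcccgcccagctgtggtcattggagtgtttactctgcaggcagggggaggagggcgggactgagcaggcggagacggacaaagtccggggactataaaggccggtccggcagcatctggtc
In the PMEPA1 window TGTTCT begins 229 bases and CAGAC 115 bases before the start. CAGAC or its complement begins 180 and 44 bases before the start in the BMPR1B window and 125 bases before it in the GDF15 window. Among 35116 windows of this length over all genes, 12.4% held TGTTCT on either strand, 38% held CAGAC and 16.4% held GGCGCC, a GC-rich SMAD element. The 8 called members have 13 windows, of which 1 held TGTTCT, 5 held CAGAC and 1 held GGCGCC. A match to so short a motif is a description of the letters and not a binding site. The table matched 41 of the 45 members, with 76 windows.

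BMPR1A, the other BMP type I receptor, was at 48.7, 42.3 and 47.6 CPM with androgen and 14.5, 14.7 and 11.7 with vehicle, beside 17.9, 19.7 and 18.5 in PC3 cells. Its log2 fold change was 1.73 (SE 0.09, edgeR adjusted p = 9.99e-10), and since 17.9% of the 74-nt stretches of BMPR1A occur elsewhere, its level is less certain than that of BMPR1B. SMAD9 was at 53.1, 43.3 and 42.2 CPM with androgen and 21.2, 17.2 and 19.2 with vehicle, a log2 fold change of 1.24 (SE 0.09, edgeR adjusted p = 3.69e-08). The androgen-treated libraries lay above the vehicle-treated ones for both genes. The type II receptor BMPR2, which pairs with both BMP type I receptors, had a log2 fold change of -0.37 (edgeR adjusted p = 2.26e-05), and SMAD4 one of -0.24 (edgeR adjusted p = 0.000276). ACVR1, ACVR1B, ACVR2A and ACVR2B were not called and ranged from -0.25 to 0.37.

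The ID genes split with androgen. ID2 was at 30.3, 20.4 and 28.3 CPM with androgen and 7.43, 6.45 and 8.88 with vehicle, a log2 fold change of 1.76 (SE 0.15, edgeR adjusted p = 1.65e-07), and 8.53% of its 74-nt stretches occur elsewhere. ID3 went down, from 9.31, 6.35 and 10.6 CPM with vehicle to 4.02, 1.96 and 3.33 with androgen, a log2 fold change of -1.52 (SE 0.22, edgeR adjusted p = 3.89e-05). ID1 overlapped between the groups, with a log2 fold change of -0.39 (SE 0.34, edgeR adjusted p = 0.309). All 3 genes were lowest in replicate 2 of both LNCaP groups. The replicate numbers appeared to pair the LNCaP libraries, judged from the counts alone, and the main test does not use this. With the number as a block, ID1 had a log2 fold change of -0.40 (edgeR adjusted p = 0.00399) and was still under a fold of 2.

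BMP6, a BMP ligand, counted 16, 27 and 26 with androgen and 64, 72 and 86 with vehicle, a log2 fold change of -1.81 (SE 0.22, edgeR adjusted p = 6.46e-06). It passed the filter through the vehicle-treated libraries alone, at 3.35, 3.84 and 4.27 CPM, so a tested BMP6 had to differ and was not tested without any 1 of them, and the androgen-treated libraries were at 0.740, 1.32 and 1.29 CPM. On the gene, 90.8% of all reads lay on the opposite strand, and these are not part of the counts.

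**Figure D4:**
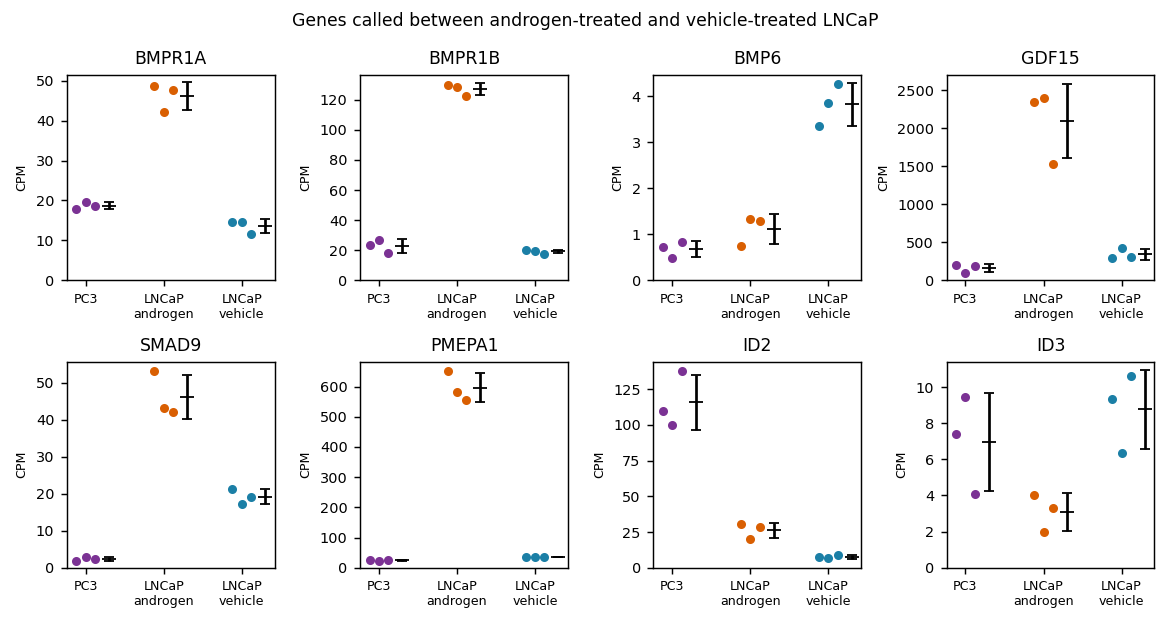
CPM of the 8 members called between the LNCaP groups, 1 panel a gene, with a point for each library of the 3 groups and a black bar for the group mean with its SD. In each panel the 3 androgen-treated libraries lie on one side of the 3 vehicle-treated libraries, and for PMEPA1, BMPR1A and BMPR1B the PC3 libraries lie near the vehicle-treated ones.

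The inhibitors inside the cell other than PMEPA1, and the SMADs other than SMAD9, differed by less than 2-fold with androgen. SMAD7 had a log2 fold change of -0.91 (edgeR adjusted p = 1.62e-05) and SMAD6 one of -0.83 (edgeR adjusted p = 1.22e-05), and no library of one group overlapped the other for either. SMAD1 was at -0.59 (edgeR adjusted p = 2.08e-06), SMAD5 at -0.28 (edgeR adjusted p = 0.000102), SMAD3 at -0.21 (edgeR adjusted p = 0.0947) and SMAD2 at 0.08 (edgeR adjusted p = 0.0722). BAMBI stood at -0.47 (edgeR adjusted p = 6.87e-05), SKI at -0.18 (edgeR adjusted p = 0.00105) and SKIL at -0.30 (edgeR adjusted p = 0.00578). None of these was called.

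INHBB differed between libraries of one group. It was at 10.4, 4.90 and 3.03 CPM with androgen and 11.8, 8.43 and 9.43 with vehicle, a log2 fold change of -0.72 (SE 0.29, edgeR adjusted p = 0.0403). Androgen-treated replicate 1, in which the PC3 markers were highest, lay above 2 of the vehicle libraries, and leaving it out gave -1.32 (edgeR adjusted p = 1.94e-05), past the threshold. Leaving out any 1 of the other 5 libraries gave -0.83 to -0.40 with edgeR adjusted p-values of 0.037 to 0.14, and DESeq2's Wald test gave an adjusted p of 0.191. FSTL3, LTBP2, LTBP3, LTBP4, TGFBR1 and TGFBR3 ranged from -0.42 to 0.21 and were not called.

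Many of the genes that were higher in PC3 cells were under the filter in this comparison. TGFB1, TGFB2, TGFB3, INHBA, FST, NOG, GREM1, ENG, BMP2, BMP4, BMP7 and TGFBI had at most 45 counts in any LNCaP library. Without a filter the TGFBR2 counts of 49, 38 and 20 with androgen and 8, 2 and 10 with vehicle gave a log2 fold change of 2.28 (SE 0.39, edgeR adjusted p = 1.77e-05), and the LTBP1 counts of 55, 17 and 17 and 60, 48 and 58 gave -1.02 (SE 0.28, edgeR adjusted p = 0.00332). Neither gene exceeded 3.14 CPM in an LNCaP library. The PC3 markers were at 0.378% to 0.952% of the PC3 mean with androgen and 0.256% to 0.471% with vehicle, and their part in the TGFBR2 counts was not tested.

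A wider list of 90 further pathway genes, none of them a member, was counted in the same fits. With androgen 42 were tested and 8 were called (19.0%), beside 14.0% of all genes. All 8 were higher, while 6.54% of all genes were called higher and 7.49% lower. The 3 with the largest rise were SNAI2, a repressor of epithelial genes (5.33, SE 0.29, edgeR adjusted p = 2.26e-09), CDKN2B, a cell cycle inhibitor that TGF-beta induces in epithelia (3.12, SE 0.12, edgeR adjusted p = 7.18e-11), and ITGAV, an integrin subunit that helps to release latent TGF-beta (2.38, SE 0.06, edgeR adjusted p = 2.23e-12). The others were THBS1, PPM1A, CRIM1, NEDD4L and JUNB. With vehicle SNAI2 counted 6, 2 and 4, CDKN2B 54, 37 and 51, and THBS1 42, 44 and 41. These genes were at or under 3 CPM in every vehicle-treated library and passed the filter through the androgen-treated libraries alone. Once tested they had to be higher, so their p-values and their place among the 8 add no support. None of the 4 further ligands and 2 further receptors tested was called.

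In PC3 cells 28 of 48 tested genes of the wider list were called against androgen-treated cells, 18 higher and 10 lower, beside 46.0% of all genes called, 24.0% higher and 22.1% lower. Against vehicle-treated cells 26 of 49 were called, 20 higher and 6 lower, beside 43.2% of all genes, 22.2% higher and 21.0% lower. Against androgen-treated cells the largest rises were in FBN2, a matrix fibrillin (8.71, SE 0.39, edgeR adjusted p = 3.4e-07), ZEB1, a transcription factor of mesenchymal cells (8.45, SE 0.23, edgeR adjusted p = 4.07e-08), and CCN2, a matrix protein induced by TGF-beta (8.09, SE 0.38, edgeR adjusted p = 4.28e-07). The largest falls were in PCSK6, a protease that processes ligands, NEO1, a BMP co-receptor partner (-4.00, SE 0.08, edgeR adjusted p = 1.57e-08), and CDKN1A, a cell cycle inhibitor (-3.62, SE 0.17, edgeR adjusted p = 3.84e-07). PCSK6 counted 1, 1 and 0 in PC3 cells, and its summed counts were 1170 times as high with androgen after scaling (95% counting interval 325 to 9710) and 1920 times as high with vehicle (531 to 15900). Against vehicle-treated cells CCN2 and FBN2 (9.58, SE 0.42, edgeR adjusted p = 3.37e-07) were among the largest rises. CCN2 counted 3, 0 and 0 with vehicle, and its summed counts in PC3 cells were 1460 times as high after scaling (95% counting interval 500 to 7090). The largest falls against vehicle were in PCSK6, the ligand BMP8A (-3.80, SE 0.34, edgeR adjusted p = 1.64e-05) and NEO1 (-3.68, SE 0.09, edgeR adjusted p = 2.95e-08). FBN2, ZEB1 and CCN2 were at or under 3 CPM in every LNCaP library, and PCSK6 and BMP8A in every PC3 library. For these genes the filter fixed the direction in advance, and their p-values add no support. Of the genes the wider list names as other targets, 5 of 9 tested were higher and 2 lower in PC3 cells than with androgen, and 6 of 8 higher and 1 lower than with vehicle.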

How the data were processed

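RNA of 9 libraries was analysed. The authors deposited counts, whole numbers of reads per gene and library without normalization, and all 253944 values equal STAR's forward-strand counts, with 0 columns left out. Per the labels and the supplement, adapters were trimmed with cutadapt, reads were aligned to hg38 with STAR, duplicates were removed by molecular identifier with UMI-tools, and what remained was mapped a second time. The submitters' processing notes list cutadapt 4.1, STAR 2.7.7a and UMI-tools 1.1.2, while the supplement names other versions of cutadapt and STAR. Between 20.3% and 25.4% of reads were not counted on a gene, and a count of 0 was taken to allow 3 counts, which covers counting error only.

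Genes over 3 CPM in at least 3 of the 6 libraries of a comparison were fitted with edgeR 4.0.16 (R 4.3.3), with TMM factors and the quasi-likelihood test, with Benjamini-Hochberg adjustment of the p-values across every gene fitted. Called genes had an adjusted p-value under 0.05 and at least a 2-fold change. The study used the likelihood ratio test with a batch term, which was left out because its batches are not named in the sources used here. Named genes with 1 to 3 counts over a group have a ratio with an exact 95% counting interval, and members with 0 a bound against 3 counts in each library. Printed CPM use TMM factors over all 9 libraries, and levels per kb divide by the exon length in GENCODE 44. The quasi-likelihood test was tested on simulated counts.

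All 45 members are accounted for. Library values are given for those called in at least 1 comparison and for those with at most 3 counts in every library of one group and more than 30 in every library of another, and of the wider list up to 3 called genes per direction are named with values. Some genes that this rule or the marker lists cover are not reported here. THBS1, PPM1A, CRIM1, NEDD4L and JUNB are named as the rest of the 8 called, after their values were seen. The members and lists were chosen with earlier results of these data known. Whether shared replicate numbers pair the libraries was checked on deviations from group means over 8992 genes. LNCaP libraries that share a number correlated across treatments with 0.19, 0.26 and 0.26, and those of different numbers with -0.28 to 0.08. The numbers thus appear to pair the LNCaP libraries, judged from the counts alone. Deviations from a group mean cancel out within the group, so these correlations depend on each other. Alternatives were DESeq2 1.42.0 size factors and its Wald test, edgeR's likelihood ratio test, the replicate block, no filter, a minimum of 10 counts in each library, no fold threshold, unstranded counts, all 9 libraries in one fit, and leaving out each library.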

Additional observations from a re-analysis of the deposited data

Results flagged for a closer look

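Reads on the opposite strand of BMP6, which no comparison uses, stood out because they outnumbered the counts of the gene itself. Over the 9 libraries 3378 reads lay on the opposite strand of BMP6 (chromosome 6, 7726099 to 7881728 on the plus strand of GRCh38) and 341 on its own strand. The opposite-strand reads numbered 674, 500 and 614 in PC3 cells, 356, 282 and 330 with androgen and 216, 185 and 221 with vehicle, so they were highest in PC3 cells. The source of these reads was not tested.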

How the results depend on the processing

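With the replicate number as a block, the number of members called was 8 with androgen, and 25 and 23 in PC3 cells against androgen-treated and vehicle-treated LNCaP cells, and no call of a member changed. For PC3 and LNCaP libraries the numbers are only shared: same-numbered libraries correlated with -0.05, 0.05 and -0.20 (androgen) and with 0.07, -0.23 and -0.03 (vehicle), and not every library correlated best with its own number. By adjusted p-value alone, 25 members differed with androgen, and 8763, 10530 and 10577 of all genes in the 3 comparisons. Without a filter 2941, 9147 and 8713 genes were called. With at least 10 counts in every library 15 members were called in PC3 against vehicle-treated cells, since 32 were then tested. Leaving out each library in turn gave 7 to 9, 16 to 23 and 13 to 21 called members, and 1404 to 1551, 4633 to 5006 and 4361 to 4593 called genes. The lowest member counts come from fits that leave out a PC3 library (30 and 32 members tested) or a vehicle-treated one (30 tested with androgen, BMP6 being the one lost), since the filter asks for 3 libraries. Without both LNCaP libraries numbered 1, chosen after seeing the data, 9 members and 1243 genes were called with androgen, INHBB (-1.21) and SMAD7 (-1.02) being past the fold of 2.

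In the comparisons where a member changed sign it was uncalled and close to 0, and the cause was not tested. Leaving out each library in turn gave -0.11 to 0.0 for ACVR1 with androgen. In PC3 against androgen-treated cells it gave -0.21 to 0.15 for LTBP4 and -0.37 to 0.08 for SMAD7. Against vehicle-treated cells it gave -0.02 to 0.31 for LTBP4, -0.2 to 0.07 for SMAD4 and -0.12 to 0.1 for SMAD1, and SMAD1 was at 0.04 with at least 10 counts and 0.01 without a filter. FSTL3 in PC3 against androgen-treated cells was at 1.0, just under the fold of 2, without androgen-treated replicate 3, and BMPR2 (-1.02), SKIL (1.04 and 1.06) and ACVR1B (-1.06, -1.0 and -1.04) passed it with 1 library left out. Over the members' log2 fold changes under all alternatives, 1459 kept direction and side of the threshold, 12 reversed, 9 passed it and 6 lost it.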
